A study of Arabidopsis thaliana with 30 samples.

Results

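The control libraries of fluorescence-sorted root cells, taken from a line in which the sieve element promoter of CALS7 drives a nuclear red fluorescent protein, were compared with libraries of whole root meristems of wild-type Arabidopsis thaliana. The comparison used 6 of the 30 libraries of the series, 3 of sorted cells and 3 of Col-0 meristems. It covered the 32678 loci that both data sets list, out of 33602 in the counts of the sorted cells and 32678 in the meristem table. The sorted libraries hold read counts, used here as CPM, counts scaled to the same total in each library, and the meristem libraries hold FPKM, fragments scaled by gene length and by library total. Because unit and protocol differ, no fold change or p-value was computed. Instead, each locus received its percentile in each library, the percent of the other shared loci with a lower value, with loci at 0 at percentile 0.

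Sieve elements are the conducting cells of the phloem. They stay alive but lose the nucleus and most organelles as they mature, while the neighbouring companion cells keep theirs and load the sugars that the sieve elements carry. In the root tip each file of protophloem sieve elements forms from dividing precursors that express PEAR transcription factors of the Dof family, and APL and its targets NAC045 and NAC086 then drive the loss of the nucleus. A whole meristem holds these few files among dividing cells of the epidermis, cortex, endodermis, root cap and stele.

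Both groups were 5 day old seedlings. The sorted cells came from a cross of pCALS7::H2B-RFP with pNAC86(XVE)::PLT2-3YFP, in which an estradiol-inducible PLT2 fusion is placed under the NAC086 promoter. The control plants received the solvent DMSO only, so they carried this transgene uninduced. Their roots were cut and digested to protoplasts, and the RFP positive cells were sorted and their RNA reverse transcribed and amplified with a low-input cDNA kit. The roots were not restricted to the meristem, and the gate took any cell with CALS7 promoter activity. The Col-0 plants carried no transgene and were untreated. Their meristems were cut by hand, pooled, and made into libraries from oligo(dT)-selected RNA without digestion or sorting. The plant background, the digestion, the sort, the amplification and the unit thus all differed together with the cell population, and their parts in any rank difference cannot be told apart. In both groups fewer cells of a type and less RNA per cell also cannot be told apart. Another table of the series is also cited below. Its 6 DMSO meristem libraries came from 5 day old seedlings of estradiol-inducible ZAT14-like and ZAT14 lines given DMSO only.

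The 3 sorted libraries, replicates 1, 2 and 4, held 42949746, 31426740 and 34939597 counts. Sorted replicate 2 stood apart, with 12262 loci at 0 against 5176 and 5985 in the other two. The Col-0 libraries, also numbered 1, 2 and 4, listed 11563 to 12064 loci at 0, and their counts and depth are unknown. Rank correlations across loci, which are not independent replicates, ran from 0.868 to 0.924 between sorted libraries, were 0.966 between Col-0 libraries, and ran from 0.765 to 0.822 between the groups. No pair of sorted libraries agreed within counting noise. Percentile 80 corresponded to 19.6 to 29.6 CPM and to 18.1 to 18.5 FPKM, and percentile 50 to 0.732 to 2.07 CPM and 1.09 to 1.23 FPKM. The labels do not say whether replicates came from separate cultures, so their spread may be technical.

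The sorted libraries carried the marker set of sieve elements at the top of their ranks. NAC086, the transcription factor of nuclear loss, stood at 1576, 1503 and 1952 CPM in sorted replicates 1, 2 and 4 and at 1.80, 1.97 and 1.67 FPKM in the meristem libraries. APL, the MYB factor needed for phloem identity, was counted at 746, 1563 and 997 CPM and listed at 4.03, 3.40 and 2.91 FPKM. SEOR1, a structural protein of the filaments inside sieve elements, had 351, 523 and 411 CPM against 0.151, 0.0382 and 0.117 FPKM. All 3 markers ranked above percentile 98 in every sorted library and below percentile 60 in every meristem library, so the groups did not overlap. The rank gap, the lowest percentile of the higher group minus the highest of the lower group, was 46.9 points for NAC086, 40.3 for APL and 57.1 for SEOR1. CALS7, the callose synthase of sieve plates, reached 2583, 1815 and 4452 CPM against 1.83, 1.40 and 1.79 FPKM, but cells were sorted by a reporter under its promoter, so its high rank is not an independent result. PLT2, the AP2 factor of the uninduced transgene, had 7.10, 4.93 and 8.42 CPM against 12.8, 9.92 and 12.1 FPKM, a gap of only -0.7 points towards the meristem. Reads of the transgene and of the native PLT2 cannot be told apart.

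The upstream regions of these 4 sieve element genes are shown because the PEAR factors, described below, are Dof proteins, whose core recognition letters are AAAG. Each is the 250 bases before the annotated gene start in RefSeq TAIR10.1, written 5′ to 3′ on the strand of the gene, with the extended Dof letters AAAAG and their reverse complement CTTTT in capitals. The NAC086 window lies at chr5:5678176-5678425 on the minus strand, that of APL at chr1:29879280-29879529 on the minus strand, that of SEOR1 at chr3:251618-251867 on the plus strand and that of CALS7 at chr1:1978128-1978377 on the plus strand.
NAC086: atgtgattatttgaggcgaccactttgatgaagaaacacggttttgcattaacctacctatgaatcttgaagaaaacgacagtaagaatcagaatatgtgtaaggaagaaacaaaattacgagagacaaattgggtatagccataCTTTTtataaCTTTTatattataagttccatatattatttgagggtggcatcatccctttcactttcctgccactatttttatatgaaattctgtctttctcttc
APL: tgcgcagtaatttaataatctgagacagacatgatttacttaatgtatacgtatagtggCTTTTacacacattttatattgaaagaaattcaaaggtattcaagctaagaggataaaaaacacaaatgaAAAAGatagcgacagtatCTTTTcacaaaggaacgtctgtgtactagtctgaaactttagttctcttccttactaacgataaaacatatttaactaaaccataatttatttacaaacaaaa
SEOR1: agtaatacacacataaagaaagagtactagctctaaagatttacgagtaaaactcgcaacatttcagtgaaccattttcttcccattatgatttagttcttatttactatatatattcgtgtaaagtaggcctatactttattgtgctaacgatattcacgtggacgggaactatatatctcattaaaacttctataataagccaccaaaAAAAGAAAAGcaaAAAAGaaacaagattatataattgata
CALS7: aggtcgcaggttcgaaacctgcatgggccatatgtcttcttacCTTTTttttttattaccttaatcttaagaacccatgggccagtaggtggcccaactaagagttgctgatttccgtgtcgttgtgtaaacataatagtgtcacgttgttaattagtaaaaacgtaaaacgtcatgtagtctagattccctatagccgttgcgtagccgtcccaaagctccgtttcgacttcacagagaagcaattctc
The windows hold 2, 3, 3 and 1 such matches. Such letters are frequent in the genome: 81.5% of the upstream windows of 26699 protein-coding loci hold at least 1, with a mean of 1.80 matches per window, counted on both strands. All 10 members of the sieve element list with a gap of at least 20 points hold 1 or more, with a mean of 2.60. Of the 206 windows of protein-coding loci that were high in sorted cells and low in meristem, defined below, 84% hold the letters, with a mean of 2.29, and 81.1% of the 53 windows of the reverse set do, with a mean of 1.60. The letters GNATATNC, recognised by MYB proteins of the subfamily of APL, occur in 21 of the same 206 windows (10.2%) and in none of the 53, against 5.44% of all windows. None of the 10 sieve element list windows holds them. Without loci that have a near-identical copy, they occur in 16 of 179 windows (8.94%). The NAC core CACG was present in 46.6% of the 206 and in 45.6% of all windows, and in 4 of the 10 of the sieve element list. A match is a run of letters and not a measured binding site.

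**Figure D1:**
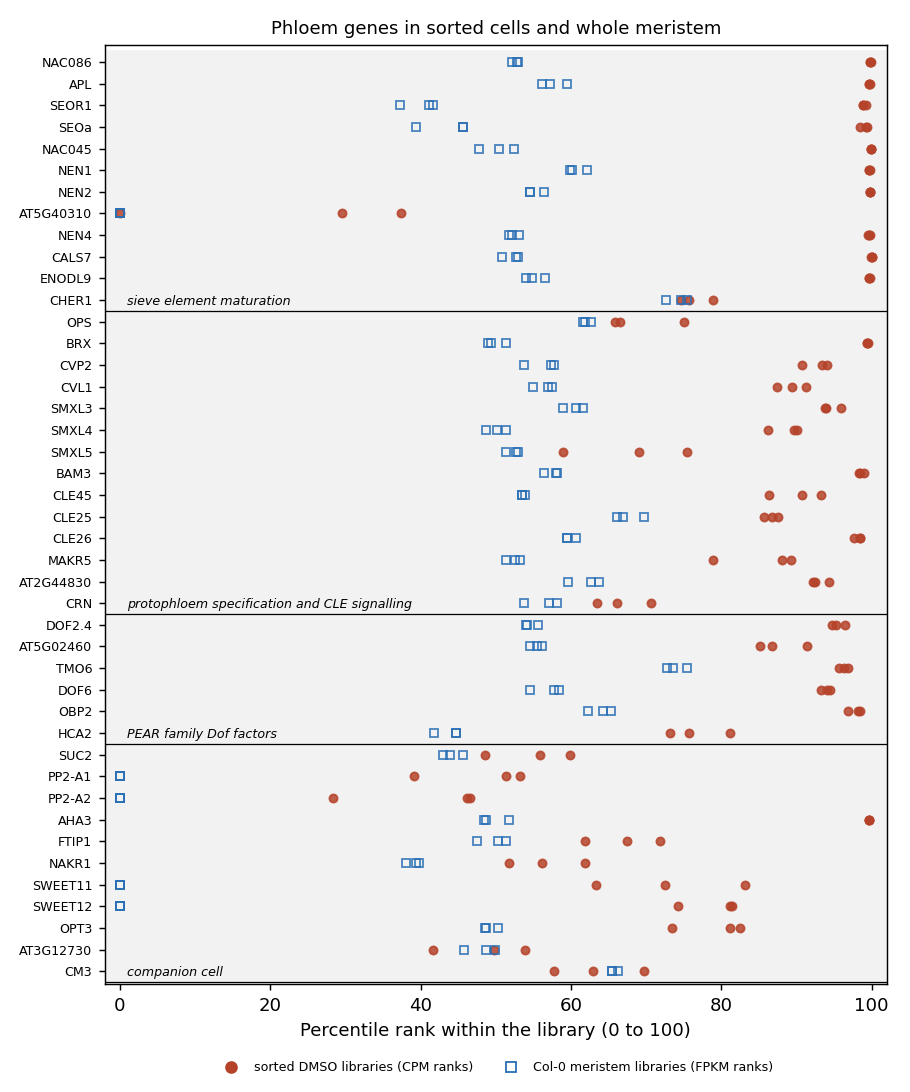
Percentile ranks of phloem genes within each library, on a scale of 0 to 100, with 1 point for each of the 3 sorted DMSO libraries (filled circles, CPM ranks) and 1 for each of the 3 Col-0 meristem libraries (open squares, FPKM ranks), grouped by gene list. The sorted points of NAC086, APL and SEOR1 lie above 98, the meristem points of these genes lie below 60, and SUC2 shows a gap of 2.8 points.

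Gene lists were counted by a rank gap of at least 20 points, which 7.19% of all shared loci reached towards the sorted cells and 4.48% towards the meristem. With sorted counts divided by exon length before ranking, called length scaling below, these shares were 7.21% and 3.85%. Of 12 genes of sieve element maturation, 10 ranked higher in the sorted cells by this rule and none in the meristem, with a median difference of the group median percentiles of 46.2 points against 0 over all shared loci. NAC045, the close relative of NAC086, was at 1521, 2040 and 2676 CPM against 1.68, 0.810 and 1.17 FPKM. SEOa, the partner of SEOR1 in the filaments, had 304, 566 and 713 CPM against 0.436, 0.0889 and 0.400 FPKM. The exonuclease genes NEN1, NEN2 and NEN4, targets of NAC045 and NAC086 that act in breakdown of the nucleus, had gaps of 37.6, 43.3 and 46.4 points, and the early nodulin-like gene ENODL9 one of 43.1. The other two members were below 20 points. CHER1, a choline transporter needed for sieve plates, had 19.3, 19.9 and 13.7 CPM against 12.9, 11.5 and 13.4 FPKM, so its percentiles overlapped, and AT5G40310, annotated as an exonuclease family protein, stood at 0.572 CPM or less and was listed at 0 in all meristem libraries.

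Genes that specify the protophloem also ranked higher in the sorted cells, with a smaller median difference. Of 14 such genes, 10 passed the 20 points, with a median of 34.3 points, and none ranked higher in the meristem. BRX, a membrane-associated regulator of auxin efflux in protophloem, had 632, 724 and 652 CPM against 1.41, 1.05 and 0.946 FPKM. The receptor kinase BAM3 stood at 404, 314 and 311 CPM and at 3.56, 3.73 and 2.99 FPKM, and its peptide ligand CLE45 had 50.1, 91.5 and 58.2 CPM against 2.00, 2.14 and 2.13 FPKM. Their gaps were 40.1 and 32.5 points. CLE45 shared 94.6% of its exonic 31-base words with other loci, so its gap is uncertain. In 6 DMSO meristem libraries of another table of the series it was listed at 0.11 FPKM or less. CLE26, another CLE peptide gene, had a gap of 36.9 points, and SMXL3 and SMXL4, relatives of the strigolactone response repressors that act in phloem formation, had gaps of 32.2 and 34.8 points. The 4 genes short of 20 points were CLE25 at 16.0, SMXL5 at 5.9, the co-receptor gene CRN at 5.3 and OPS, a polarly localised promoter of sieve element fate, at 3.1 points. Without sorted replicate 2 the count was again 10 of 14, when 15.2% of all loci passed.

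All 6 PEAR family Dof genes ranked higher in the sorted cells by at least 20 points, with a median difference of 32.6. DOF2.4 had 126, 168 and 114 CPM against 2.15, 2.34 and 2.74 FPKM. AT5G02460, another Dof-type zinc finger gene, had 51.5, 71.3 and 31.6 CPM against 2.89, 2.47 and 2.71 FPKM, and DOF6 had 115, 110 and 81.7 CPM against 3.44, 2.49 and 3.70 FPKM. A gap of at least 20 points means that the groups did not overlap for any of these genes. OBP2 had the highest sorted level of the list, with 291, 299 and 169 CPM, and a gap of 31.6 points. TMO6 was the member nearest to the limit, at 188, 161 and 126 CPM against 11.3, 12.2 and 13.4 FPKM, a gap of 20.3 points.

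The companion cell list divided. Of 11 genes, 6 ranked higher in the sorted cells by 20 points and none in the meristem. AHA3, a plasma membrane proton pump of the phloem, was as high as the sieve element markers, with 695, 1082 and 966 CPM against 0.858, 1.64 and 0.785 FPKM. SUC2, the sucrose symporter that defines companion cells, stood at only 5.63, 1.72 and 1.52 CPM against 0.216, 0.323 and 0.406 FPKM, percentiles of 48.5 to 59.9 and 43.0 to 45.6. The sucrose exporters SWEET11 and SWEET12, known from phloem parenchyma, had 5.15 to 29.9 and 12.1 to 33.3 CPM and were listed at 0 in all 3 meristem libraries, as were the phloem lectin genes PP2-A1, at 0.675, 0.891 and 2.29 CPM, and PP2-A2. Against a value listed at 0 any detected locus ranks higher, and 4 of the 6 counted genes were of this kind. Summed over the list, the companion genes gave 792, 1178 and 1033 CPM, of which AHA3 alone made up the most in each library. How far companion or phloem parenchyma cells contributed to the sorted RNA was not tested.

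Across all 32678 loci, 209 (0.64%) ranked at percentile 80 or higher in all 3 sorted libraries and at 50 or lower in all 3 meristem libraries. The reverse held for 77 loci (0.236%). At the limits of these rules, UMAMIT28 was just inside with a lowest sorted percentile of 80.54 and UMAMIT12 just outside with 79.97, while AT4G21420 was inside with a highest meristem percentile of 49.96 and TET5 outside with 50.03. For the reverse rule MLS was inside with a lowest meristem percentile of 80.05 and AT3G06125 outside with 79.89, and on the sorted side AT1G07901 was inside at 49.93 and AT1G52905 outside at 50.07. A gap of at least 20 points in any part of the range was found for 2348 loci towards the sorted cells and 1464 towards the meristem. Of the 2348, 1085 were listed at 0 in all meristem libraries. With length scaling, the 80 and 50 rules gave 269 loci (0.843% of 31912) for the sorted cells and 30 (0.094%) for the meristem. These included 198 of the 209 and 29 of the 77 loci, so most of the meristem set did not pass once length scaling was applied.

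**Figure D2:**
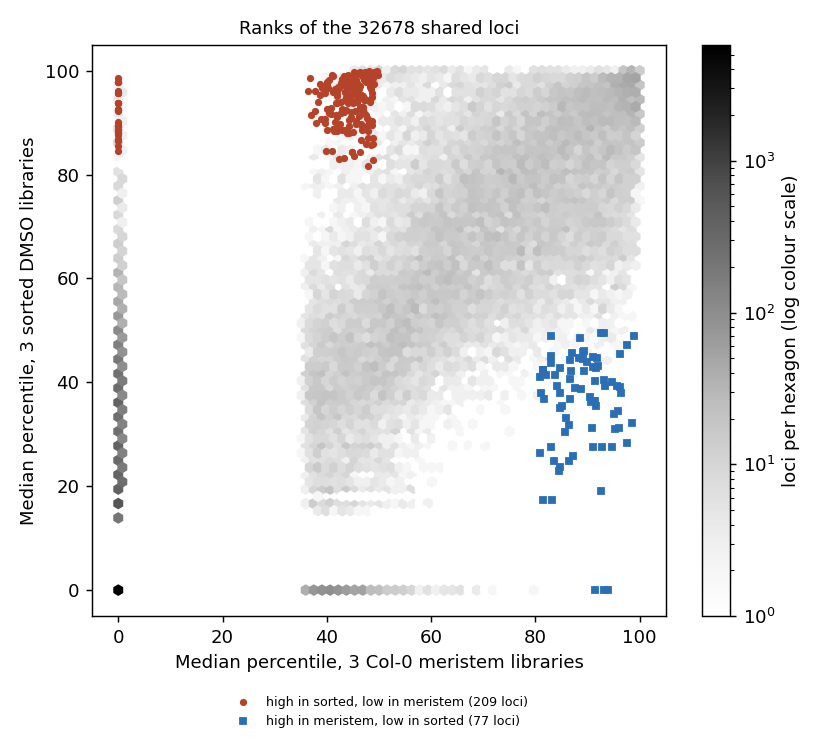
Median percentile of each of the 32678 shared loci in the 3 Col-0 meristem libraries (x axis, FPKM ranks) and in the 3 sorted DMSO libraries (y axis, CPM ranks), with the number of loci per hexagon on a log grey scale. The 209 loci high in sorted cells (circles) lie at the upper left, the 77 high in the meristem (squares) at the lower right, and loci listed at 0 lie on the axes.

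The 209 loci high in the sorted cells were nearly all protein-coding genes (206), against 26700 of all 32678 shared loci. They were of ordinary length, with a median exon length of 1698 bases against 1562 over all loci. Of the 209, 16 were listed at 0 in all meristem libraries. Among the loci that passed both with and without length scaling, 79 carry a gene symbol, and the 15 with the largest gaps are described here. Several of them encode membrane proteins. GLUR2, a glutamate receptor-like channel, had 555, 967 and 1092 CPM against 0.621, 0.508 and 0.645 FPKM, and MLO13, a membrane protein of the MLO family, had 1016, 1558 and 1744 CPM against 0.972, 0.686 and 0.643 FPKM. SIAR1, an amino acid exporter, was at 194, 493 and 308 CPM, and UMAMIT28, of the same family, at 31.1, 52.9 and 42.8 CPM. In the meristem SIAR1 was listed at 0.0484 FPKM or less and UMAMIT28 at 0 in all 3 libraries. The phosphate exporter PHO1 had 149, 172 and 113 CPM against 0.255, 0.286 and 0.201 FPKM. These 5 genes were chosen from the loci high in the sorted cells and low in the meristem, so their groups could not overlap.

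Among wall enzymes, the endoglucanase-like GH9A3 had 92.3, 229 and 234 CPM against 0.0618, 0.0261 and 0.0533 FPKM. The family 10 glycosyl hydrolase RXF12 had 420, 538 and 720 CPM against 0.397, 0.335 and 0.547 FPKM. The xyloglucan endotransglycosylase XTR6 varied most, with 429, 181 and 72.5 CPM against 0.135 FPKM or less. The gaps of these 3 genes were 53.6, 52.3 and 51.7 points. TRM14, of a family of microtubule-associated proteins, and GSTF4, a glutathione transferase, had gaps of 52.1 and 53.8 points. HSP17.6A, a small heat shock protein, had the largest gap among the loci with a symbol that passed with and without length scaling, 93.6 points. It had 108, 355 and 500 CPM and was listed at 0 in the meristem. In the 6 DMSO meristem libraries of the other table of the series, however, it was listed at up to 14.0 FPKM. LpxC5 and LpxC4 shared 100% of their exonic 31-base words with other loci, so their gaps of 86.0 and 50.7 points are uncertain, since the counting methods could assign such reads differently.

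Several families, taken by product name, were represented more than once, and were picked after these values had been seen. Of 81 shared loci with NAC domain or NTM1-like in the product name, 6 (7.41%) were high in the sorted cells and low in the meristem. The share was 0.64% of all loci. Of the 81, 21 (25.9%) had a gap of at least 20 points towards the sorted cells, and 6 of the 21 were listed at 0 in all Col-0 libraries. NAC genes worded otherwise, such as SMB, FEZ, VND6 and VND7, were not among the 81, and these had no gap towards the sorted cells. NAC028 had 268, 285 and 298 CPM against 0.623, 0.650 and 0.711 FPKM, and NAC057 had 292, 505 and 267 CPM against 0.725, 1.11 and 0.804 FPKM. NAC073 stood at 86.1, 164 and 130 CPM against 0.332, 0.153 and 0.117 FPKM. NAC010, NAC020 and NAC075 missed the lower limit but had gaps of 45.9, 34.5 and 35.3 points. Of 45 genes annotated as nodulin MtN21-like transporters, the UMAMIT family of amino acid carriers, 5 (11.1%) were high in the sorted cells and 17 (37.8%) had the 20 point gap. Of the 17, 10 were listed at 0 in all Col-0 libraries, and some of these were also low in the sorted cells, such as UMAMIT25 with 0.0931, 0.159 and 0.229 CPM. UMAMIT22 had 181, 148 and 54.7 CPM against 0.385, 0.664 and 0.181 FPKM, and UMAMIT30 had 67.4, 62.0 and 27.0 CPM and was listed at 0.0350 FPKM or less.

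Of 141 loci annotated with the cysteine and histidine-rich C1 domain, 8 (5.67%) were high in the sorted cells and low in the meristem, and 17 (12.1%) had the 20 point gap towards the sorted cells, 7 of them listed at 0 in all Col-0 libraries. Towards the meristem 5 members (3.55%) had this gap, and the median difference of the family was -7.27 points. AT3G13590 led this group with 356, 531 and 849 CPM against 0.348, 0.346 and 0.161 FPKM, and AT5G01480 followed with 185, 316 and 462 CPM against 0.371, 0.469 and 0.440 FPKM. Of 19 genes annotated as glutamate receptors, 5 (26.3%) had the 20 point gap towards the sorted cells, against 7.19% of all loci. Of the 5, GLR1.1 had only 0.349, 0.159 and 0.916 CPM and was listed at 0 in all Col-0 libraries. GLR3.4 had 189, 290 and 198 CPM against 1.36, 1.08 and 1.66 FPKM. GLR3.3 was near the limit with a gap of 20.3 points, and of 14.6 points with length scaling. Of 45 genes annotated as glutathione transferases, 3 (6.67%) were high in the sorted cells and low in the meristem, against 0.64% of all loci. They were GSTF4, GSTU18 and GSTZ2. No other had the 20 point gap in that direction, so that share was also 6.67%, near the 7.19% of all loci. The median difference of this family was -1.135 points. GSTU14 alone had the 20 point gap towards the meristem, with 48.4, 56.3 and 30.1 FPKM against 7.80, 0 and 0 CPM.

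The 77 loci high in the meristem were of another kind. Only 53 were protein-coding, 14 were snoRNA, 3 were miRNA precursors, 6 were other noncoding RNA and 1 was a long noncoding RNA. All 32678 shared loci hold 26700 protein-coding, 71 snoRNA, 178 miRNA, 170 other noncoding and 224 long noncoding loci. The median exon length of the 77 was 679 bases, and 23 of the 77 (29.9%) were shorter than 300 bases, against 4.62% of all loci. U60.2F, a small nucleolar RNA, was listed at 59.95, 48.6 and 59.8 FPKM and had 0.0466, 0 and 0 CPM. The precursors MIR775, MIR166b and MIR159b were listed at 23.9 to 51.5 FPKM and stayed at 0.512 CPM or less. U60.2F and these 3 precursors were listed at 0 in all 6 DMSO meristem libraries of the other table, so their high rank was not shared by all whole meristem libraries of the series. Of the 14 snoRNA and 3 miRNA loci, only 1, U60.2F, was among the 29 that also passed with length scaling, which had a median exon length of 944 bases.

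**Figure D3:**
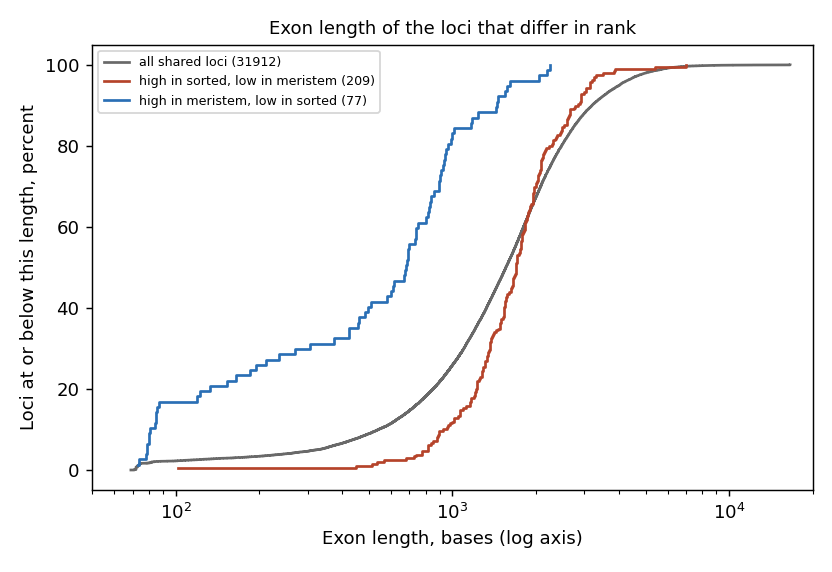
Percent of loci at or below each exon length (x axis, bases, log scale) for all 31912 shared loci with an annotated length (grey), the 209 loci high in sorted cells (red) and the 77 high in the meristem (blue). The median is 679 bases for the meristem set against 1698 for the sorted set and 1562 for all loci.

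Of the 29 loci that passed both ways, 11 carry a symbol. The trans-acting siRNA precursors TAS1A, TAS1B and TAS1C had 54.0, 66.0 and 61.5 FPKM, 23.8, 23.0 and 23.4 FPKM, and 43.7, 43.2 and 44.1 FPKM, and none exceeded 1.16 CPM. Their gaps were -48.0, -51.9 and -51.7 points, where a negative sign means higher in the meristem. The cell cycle was represented by BNS, a small subunit of the anaphase-promoting complex, and by SMR1, an inhibitor of cyclin-dependent kinases. BNS had 39.1, 52.2 and 59.1 FPKM against 1.02, 0.255 and 0.258 CPM, and SMR1 had 49.3, 52.1 and 35.2 FPKM against 0.978, 0.446 and 0.343 CPM. BNQ3, a small helix-loop-helix protein, had 89.8, 79.9 and 67.1 FPKM against 0.209, 0 and 0.830 CPM. In the DMSO libraries of the other table BNQ3 was listed at 3.35 to 6.10 FPKM and SMR1 at 4.36 to 4.78 FPKM, below the Col-0 values of each gene. NF-YC13, NAKR2, the RNase P gene PRORP2 and the desaturase gene ADS1 had gaps of -42.3, -42.1, -33.4 and -31.1 points.

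The same loci were then looked up in libraries that the rule did not use. The estradiol-treated sorted libraries, in which PLT2 was induced with 10 uM estradiol for 6 h, kept 111 of the 209 sorted-high loci (53.1%) at percentile 80 or higher in all 3 libraries. Of all 5394 loci at that level in the DMSO libraries, 87.1% stayed there. Both sets were chosen on the DMSO values, and whether the 209 lay nearer to the limit than the 5394 was not tested. SEOR1 was at 72.7, 69.9 and 136 CPM and NAC086 at 1002, 416 and 1179 CPM with estradiol, below the 3 DMSO values of each gene, while CALS7 was at 2937, 2210 and 3935 CPM and overlapped them. In meristems of the pear sextuple mutant, 191 of the 209 (91.4%) stayed at percentile 50 or lower, against 96.6% of all loci that low in Col-0. The 77 meristem-high loci were at percentile 80 or higher in all 3 mutant libraries for 54 (70.1%), against 88.8% of all loci that high in Col-0.

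The other table, of the ZAT14-like and ZAT14 lines, has its own normalization and lacks 4400 of the shared loci. Ranks were therefore redone over the 28278 loci in all tables. There 334 loci were sorted-high, and 269 of them (80.5%) stood at percentile 50 or lower in all 6 DMSO meristem libraries. The share was 95.1% of all loci that low in Col-0. Of 142 meristem-high loci, 72 (50.7%) were at 80 or higher in all 6, against 89.8% of all loci that high. Both sets were chosen partly on the Col-0 values themselves. SEOR1 reached at most 0.0887 FPKM, NAC086 1.62 FPKM and NAC045 0.908 FPKM in these 6 libraries, so the low meristem level of the sieve element genes was seen in both tables.

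**Figure D4:**
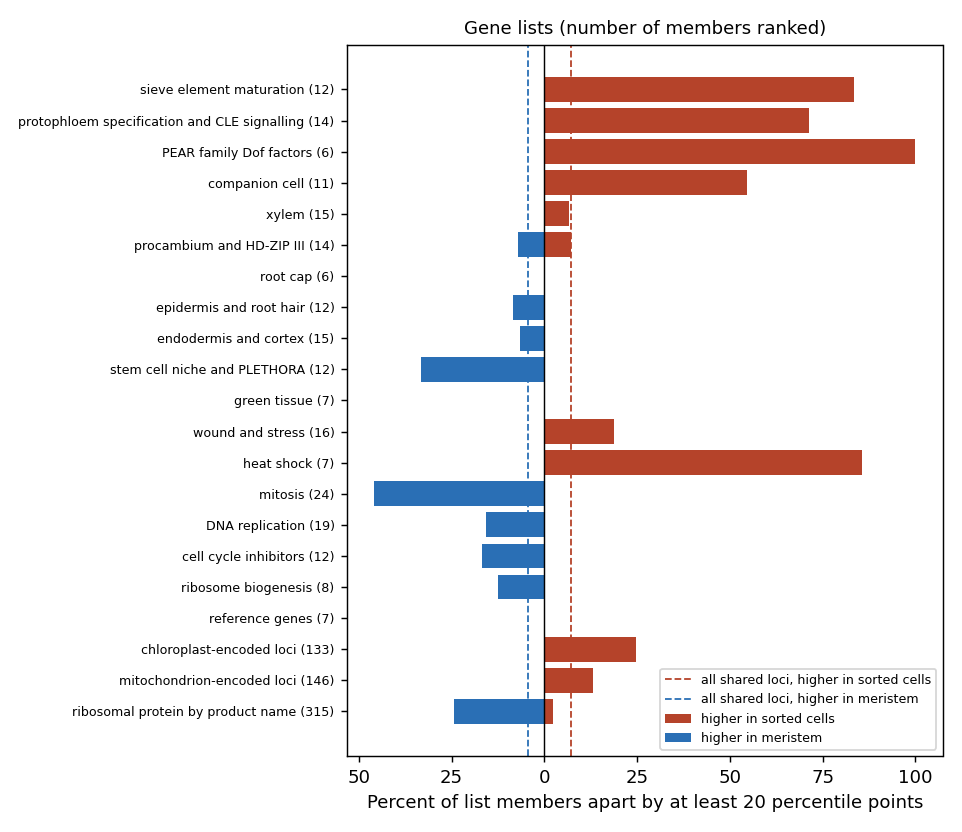
Percent of the members of each gene list that stood apart by at least 20 percentile points, to the right when higher in sorted cells and to the left when higher in the meristem, with the number of ranked members in brackets. Dashed lines mark all shared loci, 7.19% and 4.48%, and the phloem and heat shock lists extend to the right while mitosis, stem cell niche and ribosomal proteins extend to the left.

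Genes of cell division ranked lower in the sorted cells. Of 24 mitotic genes, 11 ranked higher in the meristem by 20 points and none in the sorted cells, with a median difference of -22.9 points. KN, the syntaxin of the cell plate, had 58.3, 48.6 and 68.6 FPKM against 4.10, 0.732 and 0 CPM. CDC20.1, an activator of the anaphase-promoting complex, had 61.4, 60.2 and 70.4 FPKM against 6.12, 4.23 and 5.15 CPM. The spindle checkpoint gene MAD2 had 50.0, 54.1 and 64.7 FPKM against 1.61, 0.255 and 4.18 CPM, and the cyclin CYCB2;4 had a gap of -25.4 points. These 4 genes were named for gaps of at least 20 points, so their groups could not overlap. Exceptions among the 24 were CYCB1;3, with 13.5, 13.1 and 21.4 CPM against 18.3, 15.8 and 21.7 FPKM, and CYCB2;1, whose percentiles overlapped. When only loci with at least 1 CPM or FPKM in at least 3 libraries were ranked, the count was 18 of 24, with 15.7% of all ranked loci beyond the limit.

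Of 19 DNA replication genes, 3 ranked higher in the meristem by 20 points, and the median difference was -10.1. These were CYCA3;1, an S phase cyclin, and both genes of the replication clamp, PCNA1 with 81.2, 75.2 and 80.1 FPKM against 15.4, 3.95 and 8.13 CPM and PCNA2 with a gap of -21.6 points. With length scaling, both PCNA genes were short of the limit, at -16.4 and -16.6 points. The 6 genes of the MCM helicase had gaps of -1.9 to -14.2 points. Of 12 cell cycle inhibitors, 2 passed, SMR1 and SMR4, the latter at 9.42, 9.83 and 9.59 FPKM against 1.79, 0.636 and 1.23 CPM, and SMR4 fell short with length scaling at -13.8 points.

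Ribosome genes were spread in the same direction. Of 315 loci annotated as ribosomal proteins, 77 (24.4%) ranked higher in the meristem by 20 points and 7 in the sorted cells. With length scaling, these counts were 43 and 9, and the median difference moved from -13.7 to -7.95 points. Of 8 genes of ribosome biogenesis only NOP10, a small protein of the pseudouridylation complex, passed, with 487, 466 and 524 FPKM against 6.99, 0.509 and 3.64 CPM. The list summed to 529, 56.2 and 244 CPM in sorted replicates 1, 2 and 4, lowest in replicate 2, and to 3273 to 3897 FPKM in the meristem.

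Of 12 genes of the stem cell niche and the PLETHORA family, 4 ranked higher in the meristem by 20 points. The peptide hormone gene RGF3 had 77.8, 88.1 and 99.1 FPKM against 1.84, 0.764 and 1.17 CPM, and RGF2 had 12.3, 13.1 and 15.6 FPKM against 1.16, 0.255 and 1.00 CPM. The AP2 factors BBM and PLT7 had gaps of -21.6 and -27.8 points, although PLT7 was at 0.308 FPKM or less. WOX5, the marker of the quiescent centre, had 1.33, 0.907 and 1.72 FPKM against 0.396, 0.0636 and 0.830 CPM and a gap of -6.8 points.

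Markers of other tissues were present in the sorted libraries at varying levels. The 6 root cap genes summed to 434, 37.6 and 595 CPM in replicates 1, 2 and 4, lowest in replicate 2, and to 228, 195 and 282 FPKM in the meristem. CEL5, a cellulase of the root cap, alone reached 227 and 274 CPM in replicates 1 and 4 against 28.5 in replicate 2, and AT1G65570 was at 144, 0 and 243 CPM. No root cap gene stood apart by 20 points, and member percentiles ran from 0 to 98.2 in the sorted libraries and from 58.7 to 96.4 in the meristem. Epidermal genes summed to 77.8, 32.8 and 46.2 CPM and endodermal and cortical genes to 113, 52.4 and 63.9 CPM, against 189 to 205 and 82.5 to 89.4 FPKM. WER, a MYB factor of the non-hair epidermis, had 5.03, 0.477 and 6.38 CPM against 84.2, 96.7 and 105.4 FPKM, and was the 1 epidermal gene of 12 beyond 20 points. The root hair genes COBL9, RHD6 and RSL4 were at 0 in sorted replicates 2 and 4 and at 2.00 to 6.36 CPM in replicate 1. Among 15 endodermal and cortical genes only AT1G62500 passed, at 0 in all sorted libraries and at 6.00, 9.43 and 18.18 FPKM in the meristem. With length scaling, 3 of the 15 ranked higher in the meristem by 20 points, against 3.85% of all loci. The part of these cells in the sorted RNA was not tested.

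**Figure D5:**
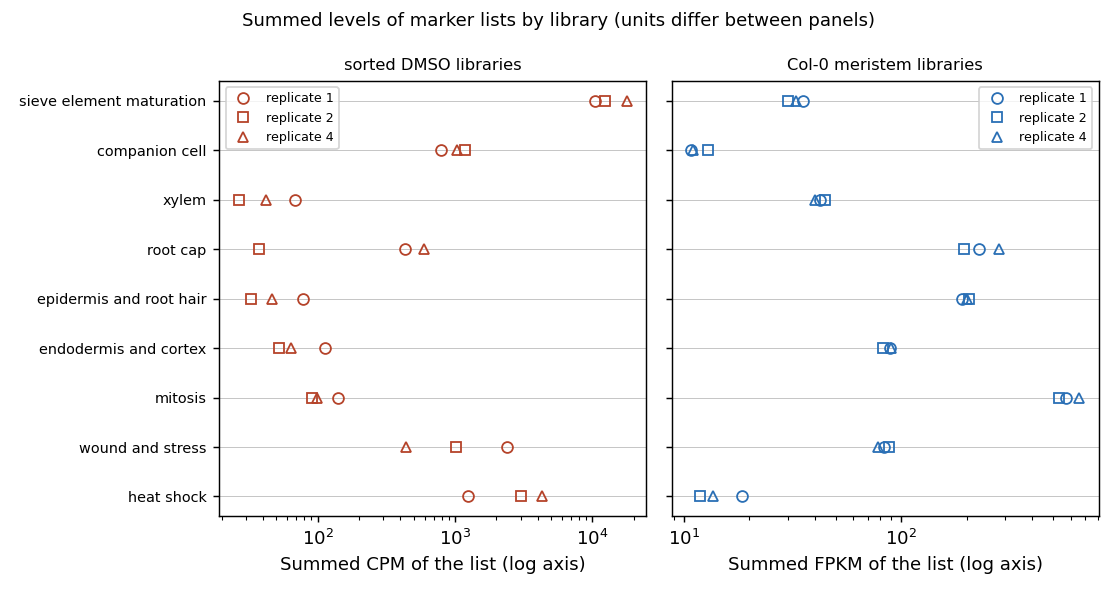
Summed levels of 9 marker lists in each library, on log axes, with the 3 sorted DMSO libraries in CPM (left) and the 3 Col-0 meristem libraries in FPKM (right). The units differ, so the panels are not to be compared by value. Root cap genes sum to 37.6 CPM in sorted replicate 2 against 434 and 595 CPM in replicates 1 and 4.

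Vascular genes outside the phloem mostly did not stand apart. Of 15 xylem genes, LAC4, a laccase of lignin formation, was the 1 that ranked higher in the sorted cells, with 8.69, 4.07 and 4.44 CPM against 0.0760, 0.0721 and 0 FPKM, and with length scaling its gap was 17.9 points. The list summed to 68.0, 26.6 and 42.4 CPM. The xylem gene ACL5, a thermospermine synthase, had 15.6, 16.9 and 16.9 FPKM against 3.14, 2.32 and 0.916 CPM, just short of the limit at -19.5 points and past it with length scaling at -20.1 points. Of 14 procambial and HD-ZIP III genes, PXY, the receptor kinase of the cambium, ranked higher in the sorted cells, with 32.5, 55.3 and 72.6 CPM against 1.42, 1.40 and 1.33 FPKM. LOG3, an enzyme of cytokinin activation, ranked higher in the meristem, with 2.85, 2.31 and 3.83 FPKM against 0.0466, 0 and 0 CPM. PHB, an HD-ZIP III factor, reached 162, 234 and 227 CPM but was also high in the meristem, with 19.0, 17.4 and 21.4 FPKM and a gap of 13.8 points. LHW, a helix-loop-helix factor of the vascular list, was at 0 in all 6 libraries compared but was listed at 45.8 to 47.4 FPKM in the DMSO libraries of the other table, so its 0 is no measure of expression. Without sorted replicate 2, 3 genes of this list rather than 1 ranked higher in the sorted cells, and 15.2% of all loci did.

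Stress genes differed between the sorted libraries as well as between the groups. Of 7 heat shock genes, 6 ranked higher in the sorted cells by 20 points, with a median difference of 42.2. HSP101, a protein disaggregase, had 200.1, 208 and 247 CPM against 2.46, 2.12 and 2.79 FPKM, and HSFA2, a heat shock factor, had 81.0, 152 and 171 CPM against 1.80, 1.76 and 0.882 FPKM. In the 6 DMSO meristem libraries of the other table these genes were listed higher than in Col-0, HSP101 at 5.79 to 11.9 FPKM and HSFA2 at 3.30 to 8.45 FPKM. HSP17.6II, with 39.7, 52.4 and 26.6 CPM, was at 0.484 FPKM or less in Col-0 and at 1.04 to 4.04 FPKM in the other table. The heat shock list summed to 1239, 3018 and 4319 CPM in sorted replicates 1, 2 and 4 and was lowest in replicate 1. Wound and stress genes went the other way between replicates, at 2401, 1025 and 441 CPM, highest in replicate 1. Of these 16 genes, 3 passed the 20 points: ZAT12 with 278, 94.4 and 33.1 CPM, DREB2A with 675, 428 and 129 CPM, and ZAT10 with 70.4, 33.4 and 35.3 CPM, all transcription factors of stress responses. In the meristem these 3 genes were at 1.70 to 10.3 FPKM. With length scaling the count was 5 of 16. The parts of digestion and sorting in these levels were not tested.

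Organelle transcripts ranked higher in the sorted libraries for 33 of 133 chloroplast-encoded loci and 19 of 146 mitochondrial loci, and for none in the meristem. These are 24.8% and 13.0%, against 7.19% of all loci. Of the 33 and the 19, 28 and 16 were listed at 0 in all Col-0 libraries. Among loci with at least 1 CPM or FPKM in at least 3 libraries the counts were 8 of 20 chloroplast and 3 of 23 mitochondrial loci, with 14.5% of all such loci beyond the limit, so the mitochondrial share was near that of all loci. Without sorted replicate 2 the counts were 62 and 51, when 15.2% of all loci passed. Chloroplast loci took 0.0666%, 0.0120% and 0.0796% of the counts of sorted replicates 1, 2 and 4, and mitochondrial loci 1.19%, 0.881% and 1.72%. Nuclear genes of photosynthesis, as markers of green tissue, summed to 2.03 to 3.60 CPM, and none of the 7 stood apart.

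Genes used as references for expression lay close together in rank. None of 7 had a gap of 20 points, and their median difference was 0.465 points. UBQ10, a polyubiquitin gene, had 2597, 2872 and 3623 CPM against 226, 265 and 270.4 FPKM, with a gap of 1.5 points. YLS8, a splicing factor gene, had 130.5, 169 and 147 CPM against 139.6, 146 and 146 FPKM and a gap of -0.7 points.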

How the data were processed

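The deposited files for the sorted cells hold raw read counts per gene, made by the authors with Bowtie2, featureCounts and the build TAIR10, per the submitters' processing notes. The meristem values are FPKM deposited by the authors, with TopHat2, HTSeq and TAIR10 named in the submitters' processing notes. Versions, annotation and strand settings are not given in the sources used here. An FPKM value falls where other genes take more of the library, and the labels name no molecular identifiers that would tell PCR copies of the amplified cDNA from separate molecules.

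Groups were taken from the sample titles. Counts were divided by library totals of 31426740 to 42949746 to give CPM, and percentiles were computed over 32678 shared loci in Python 3.11.15 with numpy 2.4.6, pandas 2.3.3 and scipy 1.17.1. Figures used matplotlib 3.10.9. The ranking code was tested on simulated data. Symbols, products, exon lengths and upstream windows came from RefSeq TAIR10.1, whose locus codes matched 31912 shared loci, and list genes without a symbol there are given by locus code. A 31-base word of the exons counted as shared if it occurs, on either strand, in the exons of any other locus. Overlapping genes also share words, so loci sharing over 50% of theirs are not thereby shown to be duplicated. No test was run because units and protocols differ.

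Genes named were the markers, CALS7 and PLT2, up to 15 loci with a symbol per direction that passed the 80 and 50 rules with and without length scaling, ordered by gap, and up to 4 members per list with gaps of at least 20 points. Genes named beyond this rule were chosen after their values were seen. The 18 lists hold 217 genes, and 3 further lists were made by locus code or product name. Members and lists were chosen with earlier results of these data known. Alternatives were length scaling, other sets of ranked loci, other thresholds, the estradiol libraries or the DMSO libraries of the other table as replacements, and leaving out each library. Restriction to unique loci, to exons of at least 500 bases, and mean ranks for ties at 0 were added after seeing the data.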

Additional observations from a re-analysis of the deposited data

How the results depend on the processing

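The main counts were 209 loci high in sorted cells, 77 high in the meristem, and 2348 and 1464 loci with a gap of at least 20 points towards sorted cells and meristem. Length scaling gave 30 meristem-high loci, and the other 3 counts moved by less than 1.5 times. Ranking only loci with at least 1 CPM or FPKM in at least 3 libraries gave 560 sorted-high and 530 meristem-high loci and 2795 with a gap towards the meristem, of which 116 of the 560 and 31 of the 530 were in the main sets. Nuclear protein-coding loci alone gave 364 and 152. The 6 DMSO libraries of the other table in place of Col-0 gave 326 and 123. The estradiol libraries in place of DMSO gave 132 sorted-high loci and 4789 with a gap towards the sorted cells. Limits of 90 and 50 gave 103 and 25 loci, and limits of 70 and 50 gave 366 and 150. A gap of 10 points was reached by 4096 and 3879 loci and one of 30 points by 1348 and 498.

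Leaving out 1 library in turn gave 216 to 275 sorted-high and 79 to 123 meristem-high loci, and 2480 to 4960 and 1565 to 2007 loci with the 20 point gap. As every library must pass these rules, leaving one out could only keep or add loci, so the counts could not fall. The value of 123 was without sorted replicate 1 and that of 4960 without sorted replicate 2, which had the most loci at 0. Ranking without near-identical copies, with exons of at least 500 bases only, or with mean ranks for ties at 0 moved no count by over 1.5 times. Of 929 recomputed gaps of the 67 named genes, 643 moved by less than the spread between replicates, 285 moved by more and 1 changed direction: PLT2 had a gap of 25.5 points towards the sorted cells with the estradiol libraries. The depth of the FPKM libraries is unknown, and a rank near percentile 50 rests on 0.732 to 2.07 CPM. No paired analysis was possible because the result comes from no test, and nothing in the labels ties same-numbered libraries of the groups to each other.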

Other observations

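Of the 209 loci high in sorted cells, 28 (13.4%) have a near-identical copy, near the 9.65% of all shared loci. Of these, 3 F-box loci on chromosome 1, AT1G24800, AT1G25055 and AT1G25150, share 94.3%, 100% and 100% of their exonic 31-base words with other loci. AT1G25055 had 188.5, 284.9 and 244.1 CPM in sorted replicates 1, 2 and 4, AT1G25150 had 188, 273.6 and 229.7 CPM, and both were listed at 0 in all Col-0 libraries. AT1G58983, annotated as a ribosomal protein S5 family member, had 221.5, 67.8 and 125.2 CPM and was listed at 0 in Col-0, but at 22.4 to 27.7 FPKM in the 6 DMSO meristem libraries of the other table. These values were singled out after they had been seen, and the part of multiply mapping reads in them was not tested.

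Among the 77 loci high in the meristem, AT4G20362, a long noncoding RNA, was listed at 74.8, 100.7 and 101.7 FPKM against 0.768, 0.0955 and 0.429 CPM. In the 6 DMSO libraries of the other table it stood at 5.34 to 8.09 FPKM. It shares 81% of its exonic words with other loci.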
